A study of Arabidopsis thaliana with 24 samples.

Results

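Plastid-encoded genes were followed in root meristems of Arabidopsis thaliana over a 6 h time course of dexamethasone treatment. They were chosen by locus: a gene was included when its locus tag in the TAIR10.1 RefSeq table begins with ArthCp, the plastid chromosome, and when a probe set of the array names it alone. This gave 63 of the 84 annotated protein-coding plastid loci, out of 16554 genes with such a probe set. Of the other loci, 19 had only probe sets that name several genes, among them atpB, atpE, psbC, psbD and the inverted-repeat copies of ndhB, rpl2, rpl23, rps7, rps12, ycf1 and ycf2.

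The seedlings were Col-0 plants carrying pRPS5A::TMO5:GR and pRPS5A::LHW:GR together, a pair of transcription factors fused to the glucocorticoid receptor domain. The RPS5A promoter is active in dividing cells, and dexamethasone lets such fusions enter the nucleus. Seedlings aged 4 days were moved from MS medium to MS medium with dexamethasone for 0.5, 1, 2, 3, 4, 5 or 6 h, with seedlings at 0 h as the reference, and root meristems were harvested. Each of the 8 times has 3 arrays, and all 24 carry both transgenes. Mock-transferred seedlings were not analysed here, so effects of the steroid, of the move to new medium and of elapsed time cannot be told apart. Whether repeats were separate cultures is not said, so p-values measure only the spread between these arrays.

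Plastids of the root meristem are proplastids, small non-green organelles that keep the whole plastid genome. That genome encodes part of the photosynthetic apparatus and part of the machinery that expresses it. Plastid genes are read by a bacterial-type RNA polymerase, whose core subunits are the products of rpoA, rpoB, rpoC1 and rpoC2, and by phage-type polymerases encoded in the nucleus. The phage-type enzymes read the rpoB operon, and the bacterial-type enzyme reads most photosynthesis genes of green tissue.

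The 63 genes fall into 24 photosystem and cytochrome b6f genes (psa, psb and pet), 13 ribosomal protein genes (rps and rpl), 10 NADH dehydrogenase-like complex genes (ndh), 4 ATP synthase genes (atp), 4 RNA polymerase genes (rpo) and 8 others. All 4 annotated rpo loci are included, 24 of 26 psa, psb and pet loci, 10 of 12 ndh loci, 4 of 6 atp loci and 13 of 25 rps and rpl loci. Each gene is measured by 1 probe set. Values are log2 expression from RMA, and a change is a difference on that log2 scale, later time minus 0 h.

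Plastid transcripts gave a bright signal in these non-green tissues. The mean over the 24 arrays was above 8 for 58 of the 63 genes, with a median of 9.83 and a range from 5.74 for the psbT probe set to 11.9 for that of rpl20. Probe sets differ in how brightly they report, so these values give no order of transcript amounts between genes. The residual SD within times had a median of 0.0925 over the 63 genes, against 0.19 over all genes.

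One of the 63 genes passed the test in any comparison: rpoC2 fell by 0.38 at 3 h (limma, adjusted p = 0.0232). Of all 16554 genes, 3.5% were called in that comparison, and 1.17% were called as falls. For 0.5, 1, 2, 4, 5 and 6 h the count of called plastid genes was 0 of 63, and the shares of all genes called were 0.224%, 0.471%, 0.973%, 2.8%, 3.33% and 4.14% in this order of times. The moderated F test of any change from 0 h called 0 of 63, against 4.5% of all genes. At an unadjusted p under 0.05 there were 1 rise and 10 falls among the 63 at 3 h, 1 rise and 7 falls at 4 h, 13 falls at 5 h and 2 falls at 6 h. These are 17.5%, 12.7%, 20.6% and 3.17% of the plastid genes, against 17.5%, 16.3%, 16.6% and 17.3% of all genes in either direction. In either direction the plastid share was thus near or below that of all genes at 3 and 4 h, above it at 5 h and well below it at 6 h. Among all 16554 genes, falls numbered 1384, 1286, 1298 and 1380 over 3, 4, 5 and 6 h, beside 1516, 1417, 1455 and 1484 rises. For falls alone the plastid share was therefore the higher one at 3, 4 and 5 h and the lower one at 6 h. Plastid genes deviate together within arrays, so these counts are not of independent genes.

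The arrays nonetheless limit how large a change in the normalized signal could be. A shift hidden by the quantile normalization within RMA is outside these limits. At 6 h the 95% intervals of 61 of the 63 genes lay within 0.5 log2 units of no change, and those of all 63 lay within 1 unit. The exceptions to the narrower bound were psbM and psbT. At 3 h 59 of 63 lay within 0.5 units, and the exceptions were rpoC2, rpoB, psbM and psbT. For all genes, 54.3% of the intervals lay within 0.5 units at 3 h and 55.2% at 6 h. The half-width of the interval had a median of 0.192 for plastid genes and 0.316 for all genes.

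**Figure D1:**
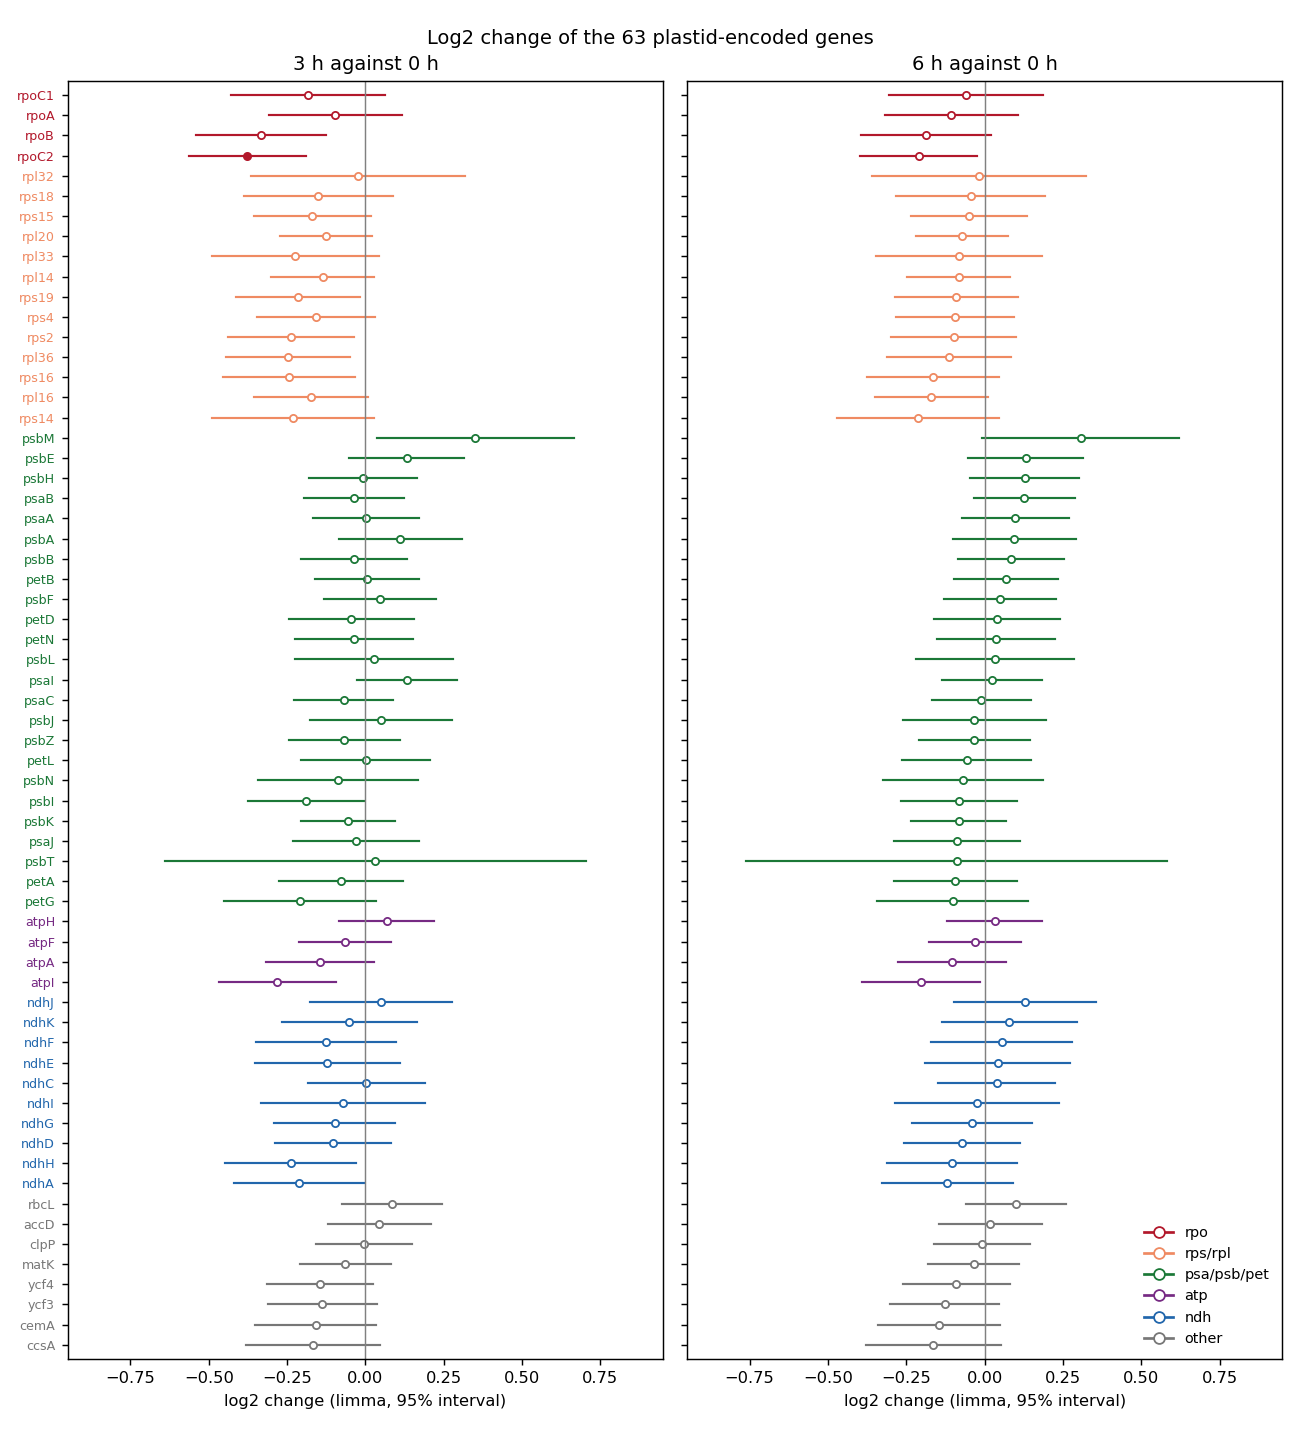
Log2 change of each of the 63 plastid-encoded genes at 3 h (left) and at 6 h (right) against 0 h, with the 95% interval from limma; colours mark the classes, and a filled point marks an adjusted p under 0.05. The only filled point is rpoC2 at 3 h, at -0.38, and at 6 h every interval but those of psbM and psbT lies within 0.5 of zero.

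The RNA polymerase genes gave the lowest class median at 3, 5 and 6 h, and the ribosomal protein genes at 4 h. All 4 rpo genes were below 0 h at 3, 4, 5 and 6 h, with a median change of -0.26 at 3 h and -0.15 at 6 h. Over all genes the median was -0.03 at both times. Of all genes, 55.6%, 53.2%, 52.8% and 55.3% were below 0 h over 3, 4, 5 and 6 h. The sign was not particular to late times: all 4 rpo genes were also below 0 h at 0.5 and 1 h. The rpo median was -0.05 at each of these, and 3 of 4 were below at 2 h. The rpo median stayed below 0 under the other scalings tried, at -0.31 and -0.25 at 3 h and at -0.21 and -0.08 at 6 h, for arrays centred on their median and after a second quantile normalization. In these bulk samples fewer cells with much plastid RNA and less plastid RNA per cell cannot be told apart.

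rpoC2 encodes the β″ subunit of the bacterial-type polymerase. Its 3 arrays had log2 values of 9.84, 9.77 and 9.70 at 3 h, against 10.25, 10.22 and 9.96 at 0 h. All 3 arrays of 3 h lay below all 3 of 0 h. Means were 9.77 ± 0.07 at 3 h and 10.15 ± 0.16 at 0 h (SD, n = 3 each), a change of -0.38 ± 0.09 (SE; limma, adjusted p = 0.0232). At 6 h rpoC2 had 9.86, 9.94 and 10.01, and repeat 3 of 0 h fell among these values. The change at 6 h was -0.21, with an adjusted p of 0.222 from limma.

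The call of rpoC2 rests on the choice of arrays. The adjusted p became 0.117 without repeat 1 of 0 h, 0.1 without repeat 2 of 0 h, 0.0594 without repeat 2 of 3 h and 0.118 without repeat 3 of 3 h. It became 0.0040, with a change of -0.47, without repeat 3 of 0 h. In a fit of the 6 arrays alone it was 0.261, and against 0.5 h the change was -0.25 with an adjusted p of 0.206.

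rpoB encodes the β subunit and is the first gene of the transcription unit that also holds rpoC1 and rpoC2. It had 8.84, 8.84 and 8.61 at 3 h, against 9.17, 9.14 and 8.99 at 0 h, without overlap. The change was -0.33 ± 0.10 (SE), and limma gave an adjusted p of 0.0697. It was called with the replicate block (adjusted p = 0.0283), with trended robust variances (0.015), without dim genes (0.0484), without repeat 3 at 0, 0.5, 1 and 2 h (0.0181) and without repeat 3 of 0 h alone (0.0381). Under the other alternatives rpoB was not called. Its adjusted p from limma was 0.11 with array weights, 0.301 in a fit of the 6 arrays alone and 0.202 against 0.5 h. Without repeat 1 or 2 of 0 h it was 0.227 and 0.183, and without repeat 3 of 3 h it was 0.3. At 6 h its arrays had 8.90, 8.91 and 8.91, again all below 0 h, with a change of -0.19 and an adjusted p of 0.344. The spread of the arrays was small at 5 and 6 h, with SDs of 0.0044 and 0.0090, against 0.0944 at 0 h.

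rpoC1, which encodes the β′ subunit, had 9.04, 9.07 and 8.96 at 3 h, against 9.22, 9.32 and 9.08 at 0 h. All 3 arrays of 3 h lay below those of 0 h, by a narrow margin, and the change was -0.18 (limma, adjusted p = 0.442). At 6 h rpoC1 had 9.06, 9.22 and 9.15, which overlapped 0 h, with a change of -0.06.

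rpoA, which encodes the α subunit, lies elsewhere in the genome, at the end of a ribosomal protein gene cluster. It had 10.49, 10.47 and 10.60 at 3 h and 10.41, 10.60 and 10.52 at 6 h, against 10.62, 10.78 and 10.46 at 0 h. The groups overlapped at both times. The changes were -0.10 at 3 h and -0.11 at 6 h, where limma gave adjusted p-values of 0.682 and 0.654. The lowest mean of rpoA came at 5 h, 10.4 ± 0.051 (SD, n = 3), a change of -0.21 with an adjusted p of 0.298.

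**Figure D2:**
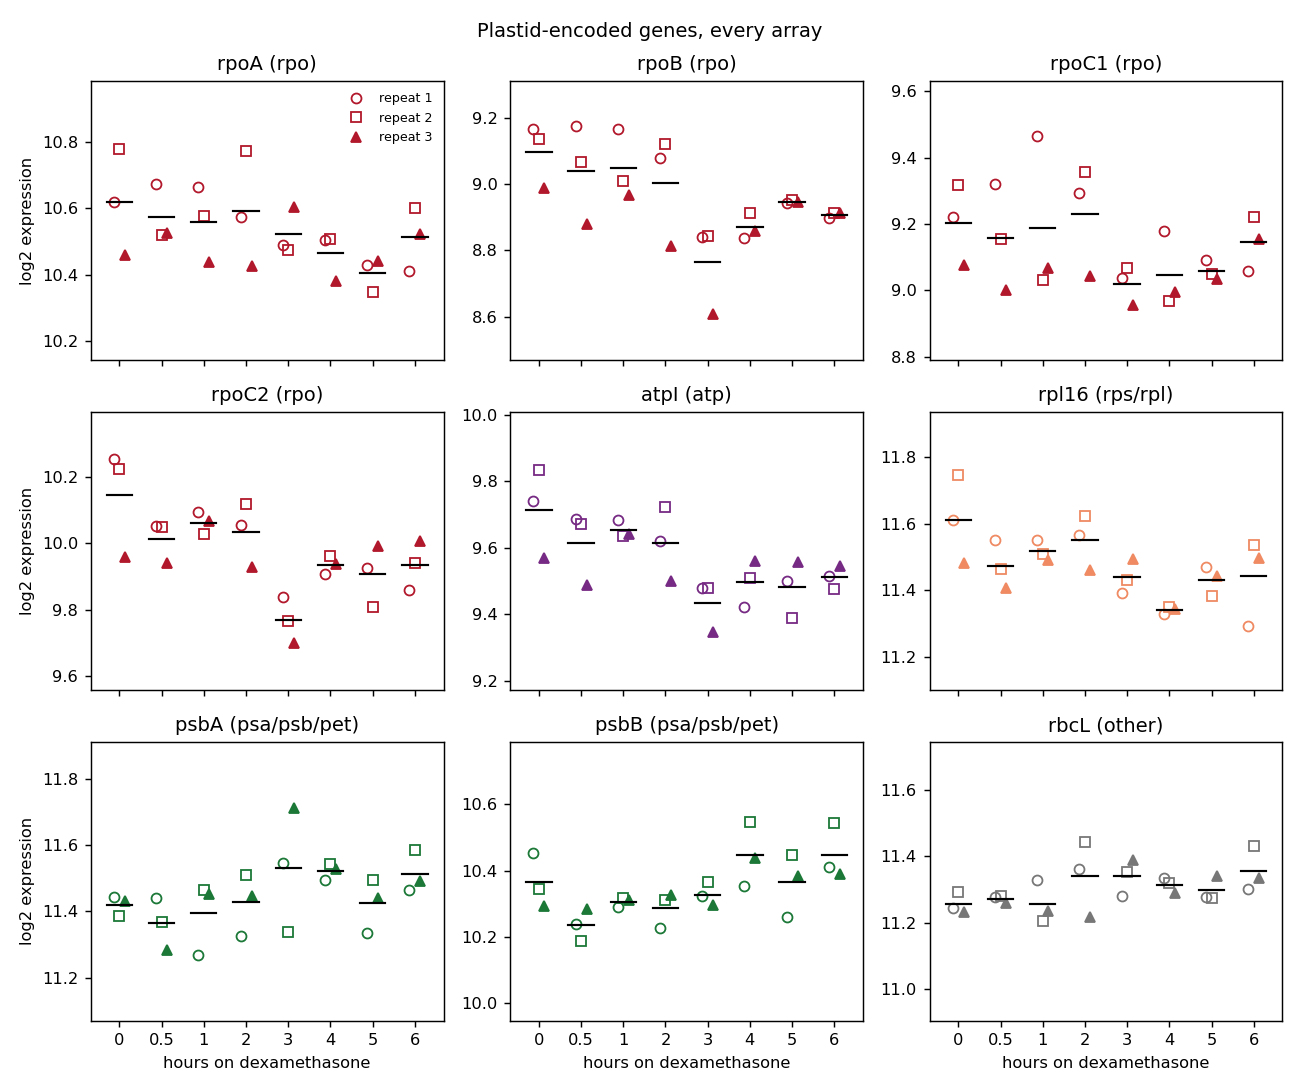
Log2 expression of 9 plastid-encoded genes in every array against hours on dexamethasone; symbols mark the 3 repeats, black bars the means of the times, and every panel spans the same log2 range. Arrays of rpoB, rpoC2 and atpI at 3 h lie below those of 0 h, while psbA, psbB and rbcL have means above those of 0 h at 6 h.

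The ribosomal protein genes, whose products build plastid ribosomes together with nuclear-encoded proteins, all lay on the lower side. In the deposited values all 13 were below 0 h at 3, 4, 5 and 6 h, with medians of -0.17, -0.19, -0.16 and -0.09, and 0 of 13 passed the test at any of these times. At an unadjusted p under 0.05 there were 4, 1, 4 and 0 falls and no rise among the 13. Over all 16554 genes the falls at these times were 1384, 1286, 1298 and 1380. Of all genes, between 52.8% and 55.6% were below 0 h at these times. At 0.5 and 1 h 12 of 13 were already below 0 h, with medians of -0.07 and -0.05, and at 2 h 10 of 13. After a second quantile normalization the median was -0.14 at 3 h and -0.03 at 6 h, and with median-centred arrays -0.23 and -0.15. These comparisons share the 0 h arrays, so the same sign at several times is not repeated evidence.

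rps14 encodes a small-subunit protein and had the lowest change of the class at 6 h. Its arrays had 7.87, 7.88 and 7.89 at 6 h, against 8.18, 8.27 and 7.83 at 0 h. Repeat 3 of 0 h lay below all arrays of 6 h, so the groups overlapped, and the change of -0.21 had an adjusted p of 0.406 by limma.

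The large-subunit gene rpl16 had 11.29, 11.54 and 11.50 at 6 h, against 11.61, 11.75 and 11.48 at 0 h. These groups also overlapped, and the change was -0.17 (limma, adjusted p = 0.323). At 4 h rpl16 had 11.33, 11.35 and 11.34, all below 0 h, with a change of -0.27 and an adjusted p of 0.0958. rpl32, also of the large subunit, had the highest change of the class at 6 h, -0.02, with 8.76, 9.17 and 9.05 against 8.82, 9.36 and 8.86 at 0 h, a wide and overlapping spread at both times.

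The photosystem and cytochrome b6f genes were centred near no change. At 6 h 13 of 24 were above 0 h and 11 below, with a median of 0.03, and at 3 h 11 were above and 13 below, with a median of -0.02. The sign of these medians depends on the scaling: at 6 h it was -0.03 with median-centred arrays and 0.06 after a second quantile normalization, and at 3 h -0.07 and 0.01. No gene of the class passed the test at any time.

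psbA encodes the D1 protein of the photosystem II reaction centre. It had 11.46, 11.58 and 11.49 at 6 h, against 11.44, 11.38 and 11.43 at 0 h. The 6 h arrays were the higher ones, without overlap, and the change was 0.09 (limma, adjusted p = 0.671). Its widest spread was at 3 h, where the arrays had 11.54, 11.34 and 11.71 and enclosed all values of 0 h.

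psbB encodes the CP47 antenna protein of photosystem II. It had 10.41, 10.54 and 10.39 at 6 h, against 10.45, 10.35 and 10.29 at 0 h, and these overlapped. petG, for a small cytochrome b6f subunit, had the lowest change of the class at 6 h, -0.10, with 9.83, 9.78 and 9.83 against 10.15, 9.92 and 9.68 at 0 h.

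psbM encodes a small photosystem II subunit and had the highest change of the class at 6 h. Its arrays had 7.60, 7.50 and 7.82 at 6 h, against 7.21, 7.28 and 7.52 at 0 h. Repeat 2 of 6 h lay just below repeat 3 of 0 h, and the change was 0.31 (limma, adjusted p = 0.306). The change was already 0.31 at 1 h and 0.41 at 2 h, and none of these passed the test.

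The ATP synthase genes differed among themselves. atpI, which encodes subunit a of the membrane part, had 9.48, 9.48 and 9.35 at 3 h, against 9.74, 9.83 and 9.57 at 0 h, all lower and without overlap. The change was -0.28 (limma, adjusted p = 0.0906). At 6 h atpI had 9.52, 9.48 and 9.55, still all below 0 h, with a change of -0.20 and an adjusted p of 0.250.

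atpH encodes the membrane ring subunit and belongs to the same transcription unit as atpI. It had 11.47, 11.43 and 11.44 at 6 h, against 11.45, 11.35 and 11.44 at 0 h, which overlapped, and its change was 0.03. At 3 h all 3 arrays of atpH lay above 0 h, at 11.48, 11.48 and 11.47, a change of 0.07 with an adjusted p of 0.683 by limma. The class median was -0.10 at 3 h and -0.07 at 6 h.

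The ndh genes encode subunits of the complex that feeds electrons back into the photosynthetic chain. At 3 h 8 of 10 were below 0 h, with a median of -0.10, and at 6 h 5 of 10, with a median of 0.01 that was -0.05 with median-centred arrays and 0.03 after a second quantile normalization. ndhA had the lowest change at 6 h, -0.12, with 9.48, 9.66 and 9.70 against 9.74, 9.85 and 9.61 at 0 h. ndhJ had the highest, 0.13, with 7.75, 8.00 and 8.07 against 7.73, 7.94 and 7.77. Both pairs of groups overlapped, and limma gave adjusted p-values of 0.6 and 0.602.

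The others are genes of single functions. rbcL encodes the large subunit of Rubisco and had 11.30, 11.43 and 11.33 at 6 h, against 11.24, 11.29 and 11.23 at 0 h. All 3 arrays of 6 h were higher, the change was 0.10, and limma gave an adjusted p of 0.557. accD encodes the plastid subunit of acetyl-CoA carboxylase, the entry step of fatty acid synthesis, and had 11.17, 11.33 and 11.22 at 6 h, against 11.22, 11.26 and 11.17 at 0 h.

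clpP encodes a protease subunit and had 11.61, 11.82 and 11.73 at 6 h, against 11.75, 11.72 and 11.72 at 0 h. matK, for an intron maturase, had 11.13, 11.24 and 11.21 at 6 h, against 11.30, 11.17 and 11.21 at 0 h. Both overlapped, as did accD, and their changes were -0.01 for clpP, -0.04 for matK and 0.02 for accD. accD and clpP are essential genes that the phage-type polymerases can read, and the intervals of these 3 genes at 3 h lay between -0.21 and 0.21.

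ccsA, which encodes a cytochrome c assembly factor, had 8.55, 8.55 and 8.51 at 6 h, against 8.82, 8.78 and 8.50 at 0 h. Repeat 3 of 0 h lay just below the arrays of 6 h, and the change of -0.16 had an adjusted p of 0.452 by limma. cemA, for an envelope membrane protein, had 9.99, 10.08 and 10.11 at 5 h, against 10.28, 10.50 and 10.25 at 0 h, without overlap. Its change at 5 h was -0.28 (limma, adjusted p = 0.104), and at 6 h it had 10.11, 10.28 and 10.21, a change of -0.15.

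**Figure D3:**
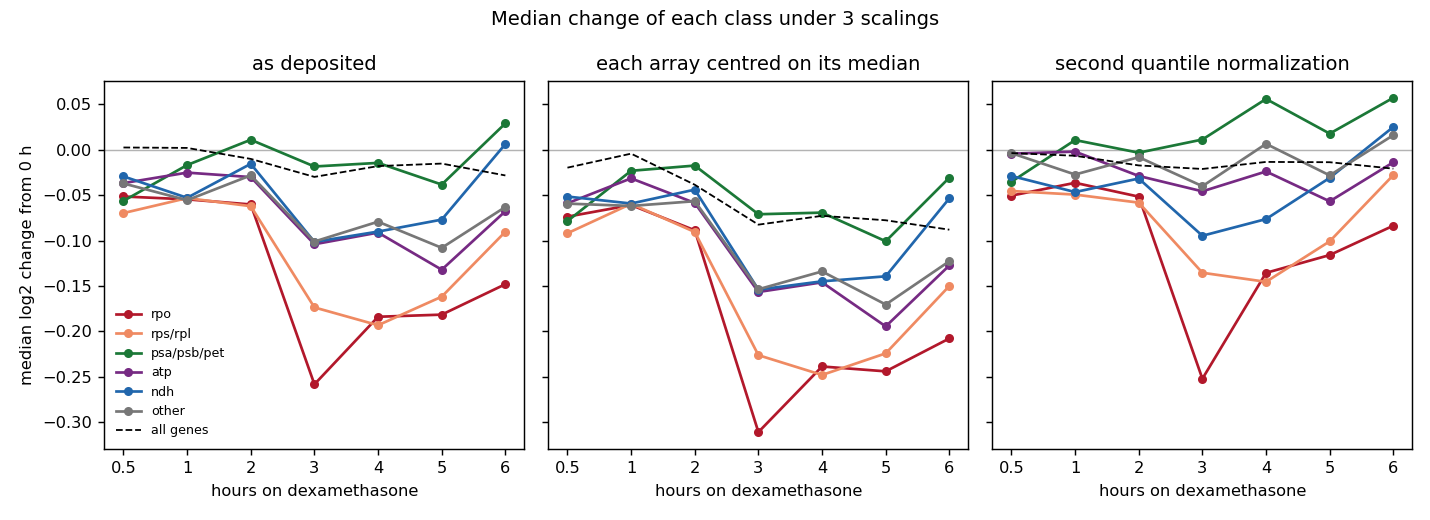
Median log2 change from 0 h of each class of plastid-encoded genes against hours on dexamethasone, for the deposited values (left), for arrays centred on their median (middle) and after a second quantile normalization (right); the dashed line is the median of all genes. The rpo and rps/rpl lines are the lowest from 3 to 6 h in all 3 panels, while the level of all lines moves with the scaling.

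Over all 63 genes the median changes for 3, 4, 5 and 6 h were -0.08, -0.11, -0.12 and -0.05. At 6 h 42 of the 63 were below 0 h, and of all genes 55.3% were. At 0.5 and 1 h 51 and 50 of the 63 were below 0 h, beside 49.4% and 49.6% of all genes. The plastid medians at these 2 times were -0.06 and -0.04. The 6 h median was -0.11 with median-centred arrays and was 0.00099 after a second quantile normalization, where 31 of 63 were below 0 h. The direction of the plastid genes as a whole at 6 h thus depends on the scaling.

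Differences between classes do not depend on how arrays are scaled to each other by a constant. In each array, the median deviation of the rpo genes from their 24-array means was set against that of the photosystem and cytochrome genes. The difference was -0.08, -0.09 and -0.26 at 3 h and -0.05, -0.09 and -0.05 at 6 h, against 0.10, 0.15 and 0.03 at 0 h. All arrays of 3 and 6 h were below all of 0 h. At 5 h the arrays had 0.03, -0.08 and -0.04, and repeat 1 of 5 h reached the lowest value of 0 h. No test was made of this score over chosen genes.

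For the ribosomal protein genes the same difference was -0.05, -0.09 and -0.11 at 3 h and -0.02, -0.04 and -0.04 at 6 h, against 0.08, 0.16 and 0.04 at 0 h. Again no array of 3 or 6 h reached those of 0 h. After a second quantile normalization the class medians still differed in this direction, by -0.15 at 3 h and -0.09 at 6 h for ribosomal protein genes and by -0.26 and -0.14 for rpo genes.

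**Figure D4:**
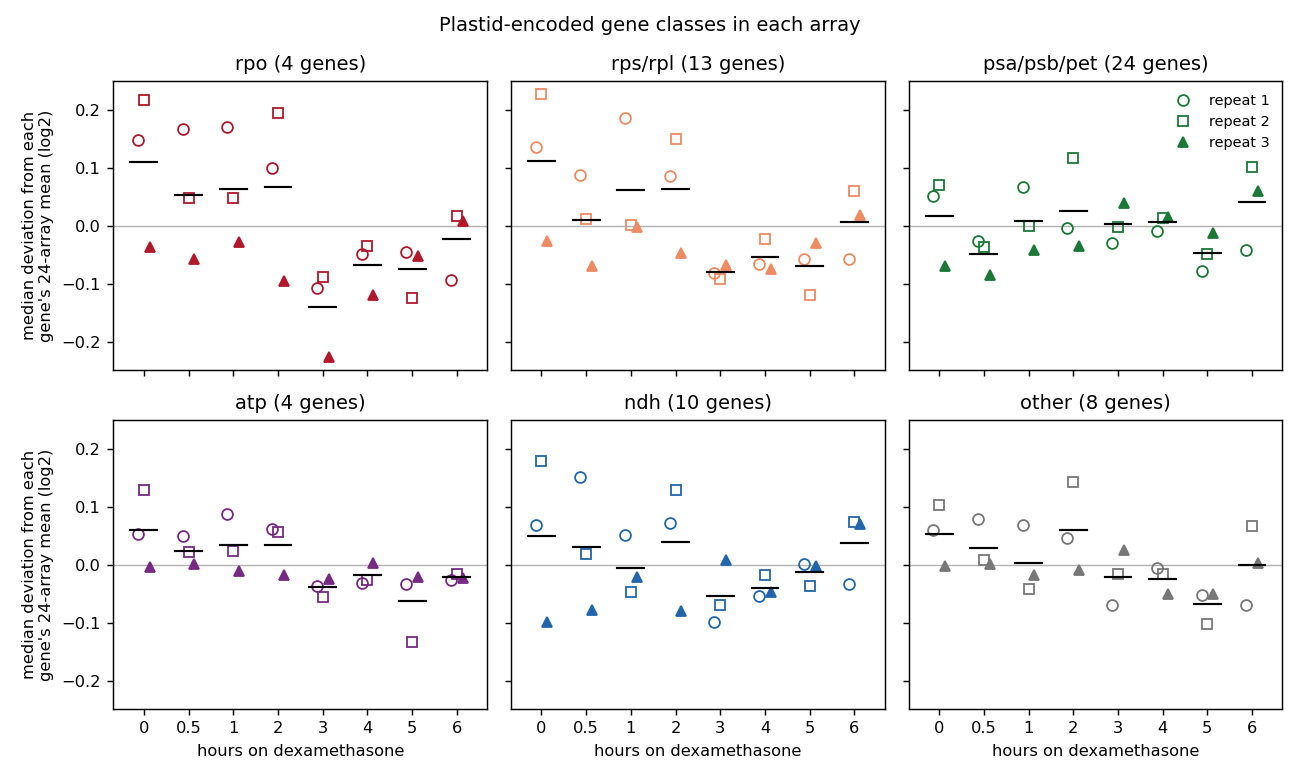
Median deviation of each class from the 24-array means of its genes, in log2 units, for every array against hours on dexamethasone; symbols mark the repeats and black bars the means of the times. The rpo arrays lie between -0.23 and -0.09 at 3 h and between -0.04 and 0.22 at 0 h, and the filled triangles of repeat 3 are the lowest rpo values at 0, 0.5, 1 and 2 h.

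Genes whose 3 arrays lay wholly apart from the 3 of 0 h were also counted. At 3 h 15 of the 63 plastid genes, 23.8%, had all arrays below 0 h, against 10.1% of all genes. At 4 h there were 14, 22.2%, against 9.36%, and at 5 h 18, 28.6%, against 9.44%. At 6 h there were 4, namely rps16, atpI, rpoB and rpl20, which is 6.35% against 10.7% of all genes. Plastid genes wholly above 0 h numbered 4, 4, 0 and 2 over 3, 4, 5 and 6 h, beside 9.27%, 9.73%, 9.79% and 10% of all genes. The 2 genes at 6 h were psbA and rbcL.

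These counts depend on scaling and on 1 array. After a second quantile normalization, the counts below 0 h over 3, 4, 5 and 6 h were 11, 9, 10 and 3, beside 9.89%, 9.36%, 9.54% and 10.6% of all genes. The counts above 0 h were then 6, 9, 3 and 9, beside 8.87%, 9.56%, 9.53% and 9.65%, so the directions were even at 4 h and those above outnumbered those below at 6 h. Of the 9 genes above, 7 were photosystem and cytochrome genes at 4 h, and 7 at 6 h. Without repeat 3 of 0 h the counts below were 33, 41, 42 and 25 of 63, beside 19.9%, 18.8%, 18.4% and 20.5% of all genes. Fewer arrays overlap more rarely, which raises the share of all genes too. At 6 h that share went from 10.7% to 20.5%, and the plastid count from 4 to 25. Repeat 3 of 0 h was below the mean of its time for 59 of the 63 plastid genes. The part of each in the rise was not tested. The genes are not independent of one another within arrays, and all these comparisons share the 0 h arrays.

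The later transferred seedlings were also compared with the earlier ones, which leaves out the 0 h arrays. In the mean of 4, 5 and 6 h minus the mean of 0.5, 1 and 2 h, 0 of 63 plastid genes were called, against 7% of all genes. At an unadjusted p under 0.05 there were 3 rises and 8 falls, 17.5% of the plastid genes against 20.9% of all genes in either direction. Over all genes these were 1728 rises and 1730 falls. By sign alone, 55.6% of all genes were lower in this comparison. All 4 rpo genes, 3 of them in 1 transcription unit, were lower, between -0.12 and -0.11, and all 13 ribosomal protein genes, with a median of -0.09. These medians stayed below 0 with median-centred arrays, at -0.15 for rpo and -0.13 for ribosomal protein genes, and after a second quantile normalization, at -0.06 and -0.05. The photosystem and cytochrome class had 12 above and 12 below, with a median of 0.0057 that was -0.03 with median-centred arrays.

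psbB was the gene nearest to a call there. Its mean was 10.42 in the late arrays and 10.28 in the early ones, a difference of 0.14 ± 0.05 (SE; limma, adjusted p = 0.0704). It was called with trended robust variances (0.0064), without dim genes (0.0424) and after a second quantile normalization (0.0127), where the difference was 0.21. With single arrays left out psbB was not called, with limma adjusted p-values from 0.0536 to 0.142. No plastid gene had its 9 late arrays wholly apart from its 9 early ones, against 0.658% of all genes wholly above and 0.308% wholly below.

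Plastid genes deviated together from array to array within a time. Of the deviations from the mean of each time, 53.7% of the variance of the 63 genes lay on 1 component. With each gene scaled to unit variance it was 47%. The same was not computed for other genes. Over the 1953 pairs of plastid genes the median correlation of these deviations over the 24 arrays was 0.45. These arrays share RMA and the labelling of 1 RNA each, so the correlation is a description of shared deviation.

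The deviations had a pattern by repeat. Repeat 3 was below the mean of its time for 59, 55, 48 and 56 of the 63 plastid genes over 0, 0.5, 1 and 2 h. Over 3, 4, 5 and 6 h the counts were 19, 32, 20 and 21. A fit without repeat 3 at 0, 0.5, 1 and 2 h called 5 plastid genes as falls at 3 h, namely rpoC2, rpoB, atpI, rps14 and ndhH, which is beside 2.83% of all genes called as falls in the same fit. Over 4, 5 and 6 h it called 1, 3 and 2, beside 2.33%, 2.36% and 2.65%, and between late and early times 3, beside 3.67%, all of them falls. What set these arrays apart was not tested.

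**Figure D5:**
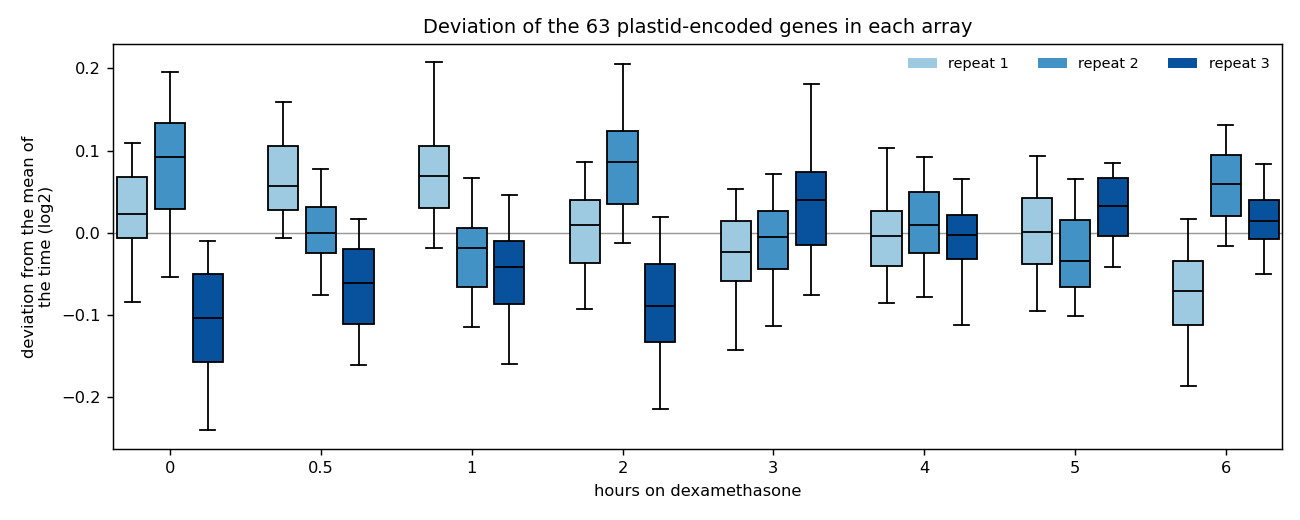
Deviation of the 63 plastid-encoded genes from the mean of their time, in log2 units, for each array against hours on dexamethasone; boxes span the quartiles with the median, whiskers the 5th to 95th percentile, and shades mark the repeats. Boxes of repeat 3 lie below zero at 0, 0.5, 1 and 2 h, with medians from -0.10 to -0.04, and the 3 boxes of 4 h lie around zero.

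Pairs of genes were also set side by side by transcription unit, as a description with no test. The 76 pairs within 11 known units had a median correlation of 0.56, and pairs of an rpo with a ribosomal protein gene had 0.61 over 52. The cluster with rps19, rpl16, rpl14, rpl36 and rpoA had 0.72 over 10 pairs, the unit of psaJ, rpl33 and rps18 had 0.78 over 3, and the rpoB unit had 0.70 over 3. The unit of rps2, atpI, atpH, atpF and atpA had 0.15 over 10 pairs, that of psbB had 0.40 over 10, and the 1 pair of the psbK unit had -0.16.

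Units whose genes belong to different classes show how far neighbours in 1 unit differed. In the unit of psaA, psaB and rps14 the changes at 6 h were 0.10 for psaA and 0.13 for psaB, which encode the photosystem I core, and -0.21 for rps14. In the atp unit the changes at 3 h ran from -0.28 for atpI to 0.07 for atpH, with -0.24 for rps2. In the psaJ unit they were -0.03 for psaJ, -0.22 for rpl33 and -0.15 for rps18. In the rps19 to rpoA cluster all 5 genes had changes between -0.25 and -0.10 at 3 h and between -0.17 and -0.08 at 6 h. None of these single changes passed the test.

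Nuclear genes that work with the plastid genome were largely unmeasured by single-gene probe sets, with 24 of 142 listed genes measured. RPOTmp, a phage-type RNA polymerase of plastids and mitochondria, was the one measured gene of plastid transcription. It had 5.78, 5.55 and 5.45 at 3 h, against 6.01, 5.93 and 6.01 at 0 h, all lower, a change of -0.39 (limma, adjusted p = 0.0697). It was called with the replicate block (adjusted p = 0.041), with median-centred arrays (0.0464) and without repeat 1 of 3 h (0.0471). Under the other 13 of 16 alternatives RPOTmp was not called. Limma gave an adjusted p of 0.254 in a fit of the arrays compared and 0.282 without repeat 3 of 3 h. At 6 h it had 5.83, 5.62 and 5.75, a change of -0.25 with an adjusted p of 0.273.

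Of 35 nuclear genes for plastid ribosomal proteins 9 were measured, and 1 was called at 6 h: PRPS6 rose by 0.48 (limma, adjusted p = 0.047). It had 3.40, 3.74 and 3.71 at 6 h, against 2.92, 3.42 and 3.06 at 0 h, and repeat 1 of 6 h lay within the values of 0 h. The call of PRPS6 was lost under 12 of 16 alternatives. These were leaving out repeat 1 or 3 of 0 h (limma, adjusted p = 0.232 and 0.0868) or repeat 2 or 3 of 6 h (0.182 and 0.167), array weights (0.0633), trended robust variances (0.0947), median-centred arrays (0.0898), a second quantile normalization (0.0822), the replicate block (0.0521), a fit of the arrays compared (0.237), the fit without repeat 3 at 0 to 2 h (0.118) and 0.5 h as the reference (0.508, a change of 0.23). Of the 9 genes 8 were above 0 h at 6 h and 1 below, with a median change of 0.14. PRPS6, PRPL3, PRPL19 and PRPL19B were dim, with 0 h means of 3.13, 3.01, 1.73 and 2.38. These lay below the medians of the 0 h arrays over all genes, 3.69, 3.70 and 3.79, and the rest of the 9 lay above them. PRPL3 had a change of 0.66 at 6 h with an adjusted p of 0.0789, and PRPL5 had -0.04 with 0.863. The plastid-encoded partners of the same ribosome, 13 genes, were all below 0 h at 6 h in the deposited values, with a median of -0.09. Of these, 0 were called and 0 had an unadjusted p under 0.05. After a second quantile normalization their median was -0.03, and rpl32 was above 0 h by 0.015.

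Of 50 nuclear photosynthesis genes, which also mark green tissue, 10 were measured and 2 were called at 6 h. Of the 10, 8 were above 0 h at 6 h and 2 below, with a median change of 0.37, and those below were LHCB4.2 with -0.14 and LHCB4.3 with -0.10. Most of these probe sets were dim. Only RCA, LHCB1.5 and PSBW had 0 h means, 4.55, 4.25 and 4.17, above the medians of the 0 h arrays over all genes, 3.69, 3.70 and 3.79. The lowest was 1.70 for LHCB4.3, and ATPC1 had 3.42. No detection calls were used, so whether the dim probe sets report transcript was not tested. RCA, which encodes Rubisco activase, rose by 0.78 (limma, adjusted p = 0.00257), with 5.19, 5.34 and 5.45 at 6 h against 4.49, 4.65 and 4.50 at 0 h, without overlap. ATPC1, for the γ subunit of the plastid ATP synthase, rose by 0.61 (limma, adjusted p = 0.0179), with 4.12, 4.23 and 3.75 against 3.29, 3.66 and 3.30, all higher. RCA kept its call under each alternative and with each single array left out, 16 in all. ATPC1 lost its call under 5 of the 16, namely without repeat 1 of 0 h (limma, adjusted p = 0.0949), without repeat 1 or 2 of 6 h (0.0745 and 0.103), in a fit of the arrays compared (0.144) and against 0.5 h (0.0953). The change of LHCB1.5, a light-harvesting gene, was 0.62 with an adjusted p of 0.0535, and it was called with the replicate block (0.033), trended robust variances (0.0409), without dim genes (0.0424) and without repeat 3 at 0 to 2 h (0.0371). Under the other 12 of 16 alternatives LHCB1.5 was not called, with a limma adjusted p of 0.287 against 0.5 h and 0.207 without repeat 1 of 0 h. The plastid partners of these proteins, rbcL and atpA, had changes of 0.10 and -0.10 at 6 h that did not pass the test.

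Markers of root zones were set beside the fall of rpoC2 at 3 h. EXPA18 and EXPA7 encode expansins of root hairs, which form in the differentiation zone, and at 3 h they rose by 0.96 and 0.77 (limma, adjusted p = 0.026 and 0.0415), and COBL9 was not measured. EXPA18 had 7.48, 7.43 and 7.65 at 3 h, against 6.29, 6.37 and 7.0 at 0 h, and EXPA7 had 8.69, 8.57 and 9.17 against 7.73, 7.88 and 8.51. Repeat 3 of 0 h was the highest of its group for both. Both calls were lost without repeat 1 of 0 h (limma, adjusted p = 0.13 for EXPA18 and 0.205 for EXPA7), without repeat 2 of 0 h (0.108 and 0.147) and without repeat 1 (0.0605 and 0.0679) or repeat 3 of 3 h (0.121 and 0.22), and that of EXPA18 also without repeat 2 of 3 h (0.0528). Both were also lost in a fit of the arrays compared (0.0857 and 0.218) and against 0.5 h (0.0801 and 0.141), and that of EXPA7 with array weights (0.0538). BBM, the only measured meristem marker of 4, had 4.82 to 5.10 at 3 h, against 4.91 to 5.60 at 0 h, and 0 of 4 root cap markers were measured. The part of tissue composition in the plastid values was not tested.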

How the data were processed

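The deposited values are log2 expression per probe set, made by the authors with RMA per the submitters' processing notes. No RMA version or genome build is given in the sources used here. RMA includes quantile normalization, which forces arrays to like distributions and can hide a shift shared by most genes. RNA was labelled by a whole-transcript assay, per the labels' protocols. Of 38408 probe sets, 16746 name 1 gene, 758 several, and 20904 none here, and probe sets of 1 gene were averaged. No detection calls were used.

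A model with 8 group means was fitted to 24 arrays and 16554 genes with limma 3.58.1 (lmFit and eBayes, R 4.3.3), with Benjamini-Hochberg adjustment over all genes and calls at an adjusted p under 0.05. The step was tested on simulated data. The number of arrays limits the precision.

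The genes, classes and lists were chosen with earlier results of these data known. Named are, per class, the highest and lowest change at 6 h, every rpo gene, psbA, rbcL, accD, clpP, matK and the 6 smallest adjusted p. Transcription units, psbT and unit members beyond this rule were picked after values were seen. Alternatives were array weights, trended robust variances, other scalings, a replicate block, leaving out dim genes, 1 probe set a gene, fewer arrays and another reference time. Repeat numbers were not taken to pair arrays.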

Additional observations from a re-analysis of the deposited data

How the results depend on the processing

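Counts of called plastid genes changed as follows. Apart from the fit without repeat 3, they are not set beside the share of all genes called in the same fit. A fit that calls more genes of every kind would also raise them, so they are not a result about plastid genes. At 3 h, with 1 called, there were 4 with trended robust variances, 2 with the replicate block, 2 without dim genes, 0 in a fit of the arrays compared, 0 against 0.5 h and 5 without repeat 3 of 0 to 2 h. At 4 h, with 0 called, trended variances gave 1 and the fit without repeat 3 gave 1. At 5 h, with 0 called, both gave 3. At 6 h, with 0 called, the fit without repeat 3 gave 2. In late against early, with 0 called, there were 7 with trended variances, 1 with median-centred arrays, 3 after a second quantile normalization, 1 without dim genes and 3 without repeat 3. The F test, with 0 called, gave 1 with trended variances and 1 without repeat 3. With single arrays left out, counts ran from 0 to 4 at 3 h, 0 to 2 at 4 h, and 0 to 1 at 5 h, at 6 h and in the F test. The replicate block gave 0 called genes at the other times. Deviations of same-numbered arrays across times had a median correlation of 0.03, against -0.02 for arrays of different numbers, and 14 of 84 pairs exceeded 0.1. By mean correlation 21 of 24 arrays went best with their own number, a hint of a shared repeat structure from the data and not from the design. The cause of these changes was not tested. The median change of the 63 genes with single arrays left out ran from -0.11 to -0.0036 at 6 h and from -0.069 to -0.036 in late against early.

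Of 935 values of named plastid genes under an alternative (at 6 h, in late against early, and at 3 h for rpoC2 and rpoB), 878 kept direction and side of the threshold, 6 lost a call, 17 gained one and 34 changed sign. The 6 losses were those of rpoC2 at 3 h. Of 192 further values, for 8 nuclear genes and for atpI at 3 h, rpl16 at 4 h and cemA and psbT at 5 h, 31 lost a call, all of EXPA7, EXPA18, PRPS6 and ATPC1, and 14 gained one. None of those that changed sign was called. At 6 h these were matK with 0.026, clpP with 0.075 and rpl32 with 0.015 after a second quantile normalization. With median-centred arrays, atpH had -0.028 and accD -0.043. Against 0.5 h, atpH had -0.025, accD -0.023, petG 0.0028, rpl32 0.033 and ndhA 0.016. accD had -0.0071 without repeat 3, and clpP 0.0029 with array weights. In late against early, median-centred arrays gave matK -0.031, atpH -0.027, psbM -0.00726 and rbcL -0.00721. A second quantile normalization gave accD 0.016 and clpP 0.019, and the fit without repeat 3 gave psbM -0.028. With single arrays left out, changes at 6 h ran from -0.064 to 0.0016 for matK, -0.00089 to 0.052 for atpH, -0.029 to 0.052 for accD, -0.22 to 0.013 for petG, -0.058 to 0.045 for clpP and -0.11 to 0.15 for rpl32. In late against early they ran from -0.00092 to 0.027 for atpH, -0.017 to 0.073 for psbM and -0.047 to 0.022 for ndhJ.

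With 3 arrays a time, the 95% interval of a plastid gene's change had a median half-width of 0.192. The counts of genes wholly below 0 h under other scalings and without repeat 3 of 0 h, and the alternatives for the nuclear genes, were chosen after seeing the data.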

Other observations

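Mitochondrion-encoded genes were set beside the plastid genes, by the symbols of the platform annotation, in 12 genes picked after the files were seen: subunits of complex I (nad), of cytochrome c oxidase (cox), of the ATP synthase (atp1) and the maturase matR. Copies of the mitochondrial genome in the nucleus can contribute to these probe signals. At 6 h 11 of the 12 were below 0 h, with a median of -0.11, and 0 were called by limma at 6 h, with 0 at an unadjusted p under 0.05. At 5 h all 12 were below 0 h, with a median of -0.15, between -0.20 and -0.04. In late against early all 12 were lower, with a median of -0.06, against -0.05 for the 63 plastid genes and -0.02 for all genes.

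psbT, a photosystem II subunit gene, had the lowest signal of the 63 probe sets and the widest spread within times, a residual SD of 0.437. It was singled out after its values were seen. Its arrays had 5.39, 4.36 and 5.63 at 5 h, against 5.93, 6.27 and 5.55 at 0 h. Repeat 2 of 5 h stood far below the others, repeat 3 of 5 h overlapped 0 h, and the change of -0.79 had an adjusted p of 0.211 by limma. Over the 63 genes, the rank correlation of mean signal with residual SD was -0.73, a description over probe sets that share the same arrays.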
